A study of Mus musculus with 48 samples.

Results

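Chromatin accessibility was examined at 6 loci of the Notch pathway and of the non-neuroendocrine state in mouse small cell lung tumors. Members were the merged ATAC-seq peaks of equal width centred in fixed windows of build mm9 around Notch1, Notch2, Hes1, Rest, Cd44 and Ccnd1. Position in a window decided membership, and the 6 loci were picked with earlier results of these data known. There were 112 such peaks among 114043: 13 in the Notch1 window (chr2:26250000-26420000), 25 at Notch2 (chr3:97750000-98020000), 40 at Hes1 (chr16:29950000-30200000), 6 at Rest (chr5:77640000-77760000), 16 at Cd44 (chr2:102580000-102800000) and 12 at Ccnd1 (chr7:152030000-152200000). A window holds more than its gene. In the RefSeq gene order of GRCm38 the nearest coding genes are Sec16a and Egfl7 for Notch1, Gm5544 and Adam30 for Notch2, Opa1 and Cpn2 for Hes1, Spink2 and Noa1 for Rest, Slc1a2 and Pdhx for Cd44, and LTO1 and Tpcn2 for Ccnd1. No mm9 annotation was used here, so peaks are given by window and position and none is called a promoter or an enhancer.

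All libraries came from tumors of mice in which Cre deleted Trp53, Rb1 and p130, with the R26mG reporter allele in the labelled genotype. ATAC-seq reads open chromatin through the adapters that the Tn5 transposase inserts into it. The CMV comparison set 8 Nfib-amplified libraries (5 liver metastases, 1 lymph node metastasis and 2 lung tumors) against 7 libraries without the amplification, all lung tumors, in mice given Ad-CMV-Cre, whose promoter is active in many cell types. The description of 1 of the 7 lists no comparison, so 6 or 7 libraries may have entered the authors' fit. The CGRP comparison set 7 liver metastases against 11 lung tumors, 1 of them Nfib-amplified, in mice given Ad-CGRP-Cre, whose promoter is that of a neuroendocrine peptide. A further 15 CMV libraries, low in ATAC-seq enrichment according to their labels, were part of neither comparison. The sources used here give no ages or times after infection.

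Amplification and tissue cannot be told apart in the CMV groups, nor can preparation batch be set aside in the CGRP groups, where all 7 metastases and 7 of the lung tumors were prepared in batch 2 and the other 4 lung tumors in batch 3. In the CMV groups 2 amplified and 2 not amplified libraries were prepared in batch 1, and 6 and 5 in batch 3. The files hold fitted values per peak and no value per library, so sequencing depth is unknown, the spread over libraries is given only as the SE of each log2 fold change, and neither a library nor a batch could be left out. Libraries may share animals or tumors: the 8 amplified libraries carry 5 distinct titles once a final A or B is dropped, the 7 not amplified ones 5, and the 11 CGRP lung tumor libraries 9. The labels mention no sorting of tumor cells, so fewer cells of a type and less open chromatin per cell cannot be told apart.

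Notch receptors are cleaved when a neighboring cell presents a ligand, and the released intracellular domain enters the nucleus, where it joins the DNA-binding protein RBPJ and switches on target genes. Hes1 is the classic target, a helix-loop-helix repressor of transcription. Rest encodes a repressor of neuronal genes that is normally low in neuronal and neuroendocrine cells. In small cell lung cancer, Notch-active cells are known to lose neuroendocrine features and to express Hes1 and Rest. Cd44, a hyaluronan receptor, marks adherent non-neuroendocrine cells, and Ccnd1 encodes cyclin D1, the partner of the kinases that phosphorylate the RB protein deleted in these tumors.

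The RefSeq promoters of 2 of the genes are shown because they carry the letters of sites linked to the study: RBPJ, through which Notch acts, and the nuclear factor I family, to which the amplified gene Nfib belongs. Promoters of 3 of the 6 genes were matched (Notch1, Notch2 and Cd44). Those of Hes1, Rest and Ccnd1 were not. Each runs from 250 bases before to 50 after the gene start, 5′ to 3′ on the strand of the gene, in build GRCm38.p6. Capitals mark TGGGAA (RBPJ) or TTGGC (nuclear factor I core) on either strand. These positions are of another build than the peaks, and no peak was placed on them.
Cd44 (chr2:102901616-102901915, minus strand): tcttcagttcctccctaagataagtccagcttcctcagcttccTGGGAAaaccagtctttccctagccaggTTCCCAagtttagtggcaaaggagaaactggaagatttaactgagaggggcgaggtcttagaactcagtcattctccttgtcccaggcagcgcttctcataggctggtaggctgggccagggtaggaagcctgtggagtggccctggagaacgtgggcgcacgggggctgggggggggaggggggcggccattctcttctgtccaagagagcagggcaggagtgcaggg
Notch2 (chr3:98013288-98013587, plus strand): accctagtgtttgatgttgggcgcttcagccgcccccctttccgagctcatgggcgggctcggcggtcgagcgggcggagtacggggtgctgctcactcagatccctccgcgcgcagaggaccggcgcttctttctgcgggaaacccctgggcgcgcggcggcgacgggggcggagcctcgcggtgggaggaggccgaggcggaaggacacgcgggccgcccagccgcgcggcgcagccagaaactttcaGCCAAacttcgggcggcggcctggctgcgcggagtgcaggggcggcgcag
The Cd44 promoter held 2 RBPJ matches, one on each strand, and no TTGGC. Notch2 held 1 TTGGC match on the opposite strand and no TGGGAA, and Notch1 neither. Among 32817 promoters of this length, 25.6% held TGGGAA and 46.7% TTGGC. The full palindromic nuclear factor I site, which contains TTGGC and its reverse complement around a spacer, occurred in 0.0366% and in none of the 3. The N-box CACNAG, a site of Hes proteins, occurred in 42.5% of promoters. It had 3 matches at Notch1, 1 at Notch2 and 0 at Cd44, and is not capitalised. GC content was 73% in the Notch2 promoter, 68.3% in that of Notch1 and 58% in that of Cd44, against a median of 52.7% over all promoters.

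In CMV tumors, peaks counted over all 6 loci changed in both directions with Nfib amplification, and the balance differed by window. Losses outnumbered gains at Hes1 (16 to 6), Ccnd1 (2 to 0) and Rest (1 to 0). Gains outnumbered losses at Cd44 (6 to 1) and Notch2 (7 to 5), and Notch1 had 3 of each. Calls use a threshold of 0.05 on the adjusted p. By the authors' deposited table, a total of 22 of 112 peaks (19.6%) were raised in Nfib-amplified libraries and 28 (25%) were lowered. Over all 113873 peaks tested, 34.3% were raised and 12.2% lowered. The median log2 fold change was -0.14 over the 112 peaks and 0.60 over all peaks. With that general shift of 0.60 subtracted, 12 peaks were higher and 50 lower, against 19.9% higher and 25.6% lower over all peaks. The shift was not seen at strong peaks. Over all 11491 peaks with a mean count of 100 or more, the median log2 fold change was -0.02. The subtraction made 7041 of those peaks lower and 952 higher. The 12 higher members were all among the 22, and the 50 lower ones included all 28. This was largely set by the subtraction, which lowers every value by the same amount at an unchanged SE. No called peak could turn its direction, since the smallest raised value, 0.86, exceeds 0.60. Raised peaks ranged from 0.86 to 5.17 in log2 fold change (median 2.16, median SE 0.60) and lowered peaks from -4.43 to -0.36 (median -1.86, median SE 0.43).

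**Figure D1:**
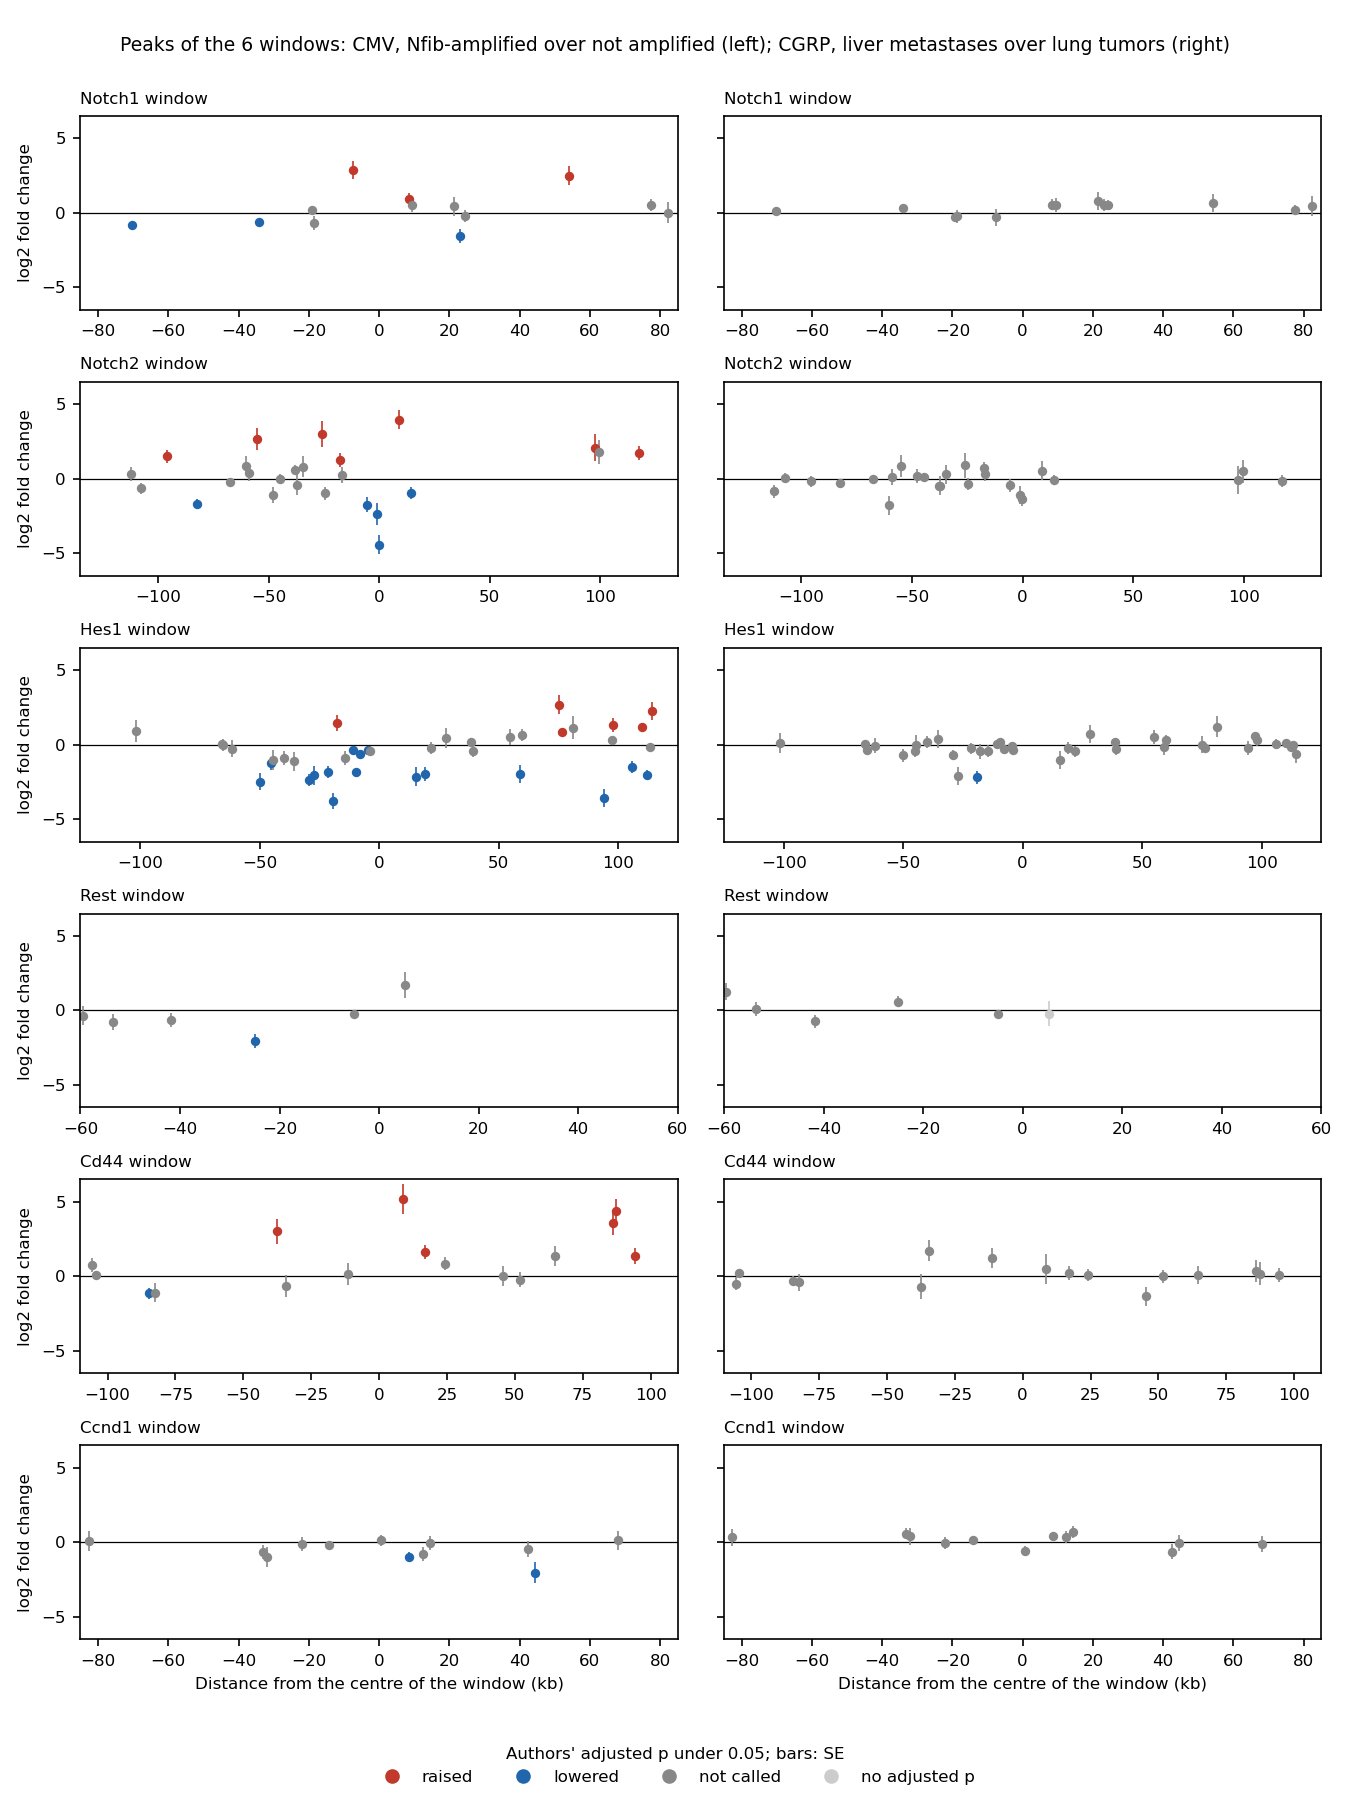
Authors' log2 fold change with its SE for every peak, by distance from the centre of each window (kb), for the CMV comparison of Nfib-amplified over not amplified libraries (left) and the CGRP comparison of liver metastases over lung tumors (right); colors give the call at an adjusted p under 0.05. Raised and lowered peaks lie side by side at Notch1, Notch2 and Hes1, gains reach 5.17 at Cd44, and 1 peak of the right column, at Hes1, was called.

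The windows differed in the balance of gains and losses, which is given as counts with no test of a window. Over all tested peaks 34.3% were raised and 12.2% lowered. Cd44 had 6 raised and 1 lowered peak of 16 (37.5% and 6.25%), so its raised share was near that of all peaks. With the general shift subtracted, 4 Cd44 peaks were higher and 3 lower, against 19.9% higher and 25.6% lower over all peaks. Hes1 leaned to losses, with 6 raised and 16 lowered of 40 (15% and 40%). Notch1 had 3 raised and 3 lowered of 13, and Notch2 7 raised and 5 lowered of 25. Rest had 0 raised and 1 lowered of 6, and Ccnd1 0 raised and 2 lowered of 12. At an unadjusted p under 0.05 the authors' deposited table had 2 of 6 peaks at Rest and 2 of 12 at Ccnd1, the extra Rest peak in the raised direction, and 56 of the 112 (50%), against 53.4% of all peaks. Median log2 fold changes were 0.82 at Cd44, 0.33 at Notch2, 0.17 at Notch1, -0.32 at Ccnd1, -0.41 at Hes1 and -0.49 at Rest. Relative to the median of all peaks, only the Cd44 median stayed above 0, at 0.21, and the others were at -0.27, -0.43, -0.92, -1.02 and -1.09 in that order.

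Surroundings did not share these balances in every case. In the 1 Mb on each side of the Hes1 window, 41.6% of 161 peaks were raised and 14.9% lowered, whereas the window itself had 15% and 40%. Beside Cd44, 26.6% of 169 peaks were raised and 24.3% lowered, against 37.5% and 6.25% in the window. Beside Ccnd1, 21.2% of 80 peaks were raised where the window had none. Around Notch1, 14.1% of 149 peaks were raised and 29.5% lowered, and around Notch2 20.4% and 16.1% of 93. At Rest the flanks had 26.5% and 13.7% of 102 peaks with an adjusted p.

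**Figure D2:**
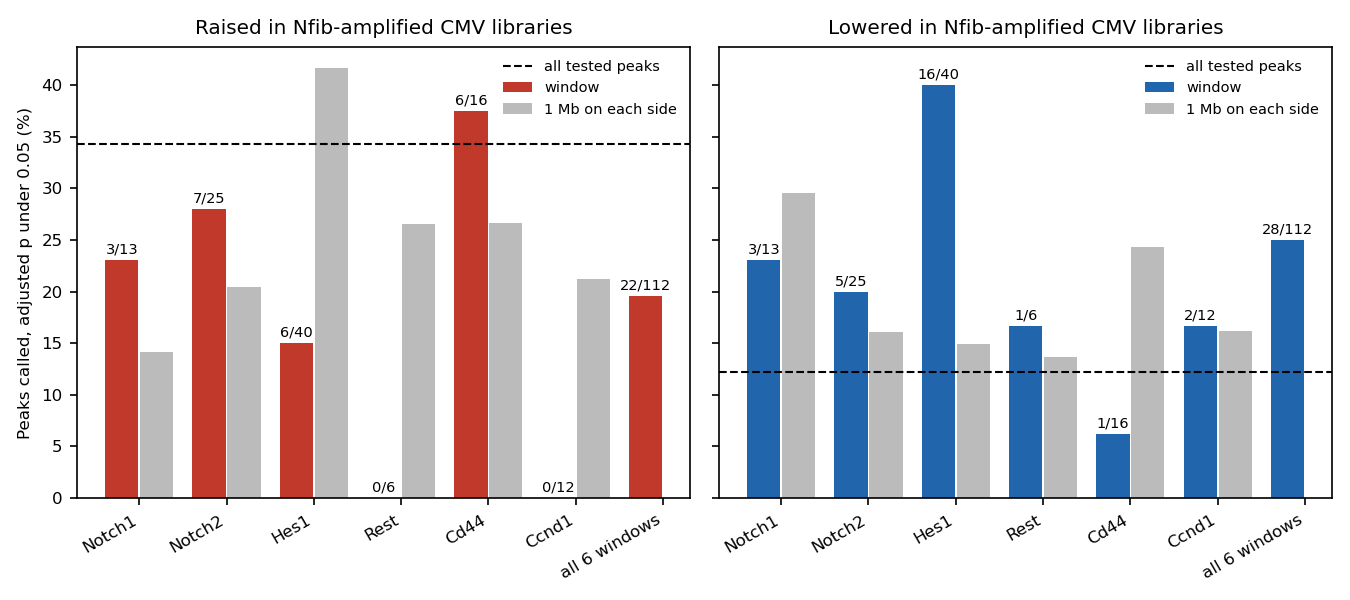
Share of peaks (%) raised (left) and lowered (right) in Nfib-amplified CMV libraries, for each window (colored bars, with the count of peaks above) and the 1 Mb on each side of it (gray bars); the dashed line is the share over all tested peaks. Hes1 stands at 40% lowered, above its flanks at 14.9% and the 12.2% of all tested peaks. Cd44 stands at 37.5% raised, above its flanks at 26.6% but near the 34.3% of all tested peaks. Rest and Ccnd1 have 0 raised peaks.

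Notch1 encodes the receptor whose active form drives non-neuroendocrine fate in this tumor type. Its strongest gain lay at chr2:26327262-26327762, at 2.87 on the log2 scale (SE 0.62, adjusted p = 5e-05), a 7.31-fold difference, and a mean normalised count of 26.2 in the authors' deposited table. A second gain, at chr2:26388790-26389290, had 2.50 (SE 0.65, adjusted p = 0.000739) by the authors' deposited table. A smaller gain, at chr2:26343168-26343668, had 0.95 (SE 0.41, adjusted p = 0.045) by the authors' deposited table and was no longer called once the general shift of 0.60 was subtracted (adjusted p = 0.505). The 2 peaks with the highest mean counts of the window both lost accessibility. The highest of all, at chr2:26300677-26301177 with a mean count of 185, had -0.62 (SE 0.19) in the authors' deposited table, with an adjusted p of 0.00327. Next, at a mean count of 94.1, chr2:26264444-26264944 had -0.81 (SE 0.17, adjusted p = 2.69e-05) by the authors' deposited table. The largest loss was at a weak peak, chr2:26357765-26358265, with -1.55 (SE 0.46) and a mean count of 13.6 in the authors' deposited table. Of 5 pairs of neighboring called peaks, 3 had opposite directions, the closest 14.6 kb apart. The share of opposite pairs over all peaks was not counted, so this count and those of the other windows are descriptions only.

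Notch2, a second receptor of the pathway, had the widest spread of changes. Its largest loss, at chr3:97884515-97885015, reached -4.43 (SE 0.64, adjusted p = 7.7e-10), a 21.6-fold difference, in the authors' deposited table. The largest gain of the window stood 9042 bp away, at chr3:97893557-97894057, with 3.97 (SE 0.65, adjusted p = 6.07e-08), 15.7-fold, in the authors' deposited table. The lost site had mean count 28.6 and the gained site 23.1, so the opposite changes were seen at peaks of similar average signal. The loss was not isolated: both peaks before it, at chr3:97883601-97884101 and chr3:97879178-97879678, had -2.37 (SE 0.73) and -1.74 (SE 0.51) in the authors' deposited table, and 5469 bp beyond the gained site a further peak at chr3:97899026-97899526 had -0.95 (SE 0.40, adjusted p = 0.0409) there. Other gains were at chr3:97858769-97859269, with 3.02 (SE 0.86, adjusted p = 0.00198), and at chr3:97829770-97830270, with 2.66 (SE 0.74, adjusted p = 0.00156), by the authors' deposited table. The peak with the highest mean count, 102, at chr3:97817169-97817669, had -0.24 (SE 0.17, adjusted p = 0.231) by the authors' deposited table, and -0.84 (adjusted p = 4.98e-06) relative to the median of all peaks. That median is 0.60, whereas it was -0.02 over all peaks with a mean count of 100 or more. Of 11 pairs of neighboring called peaks, 6 had opposite directions. In the summit lists, the gained site had a summit of the CMV pool and none of the CGRP pool, and the lost site had one of each.

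Hes1 encodes the repressor that carries Notch signals to neural genes, and its window was the densest, with 16 peaks per 100 kb, against 5 at Rest and 7.06 to 9.26 at the other windows. Losses were more numerous on the left of the window (chr16:29950000-30075000), where 10 of 20 peaks were lowered and 1 raised. On the right 6 were lowered and 5 raised of 20. The largest loss, at chr16:30055476-30055976, had -3.80 (SE 0.53, adjusted p = 2.1e-10), 13.9-fold, in the authors' deposited table. Next came chr16:30168914-30169414 with -3.58 (SE 0.61, adjusted p = 2.73e-07) and chr16:30024688-30025188 with -2.49 (SE 0.56, adjusted p = 7.55e-05) by the authors' deposited table. Some strong peaks also lost accessibility, to unlike extents. Of the 11 members whose mean count reached 100 or more, a limit chosen after their values were seen, 7 lay in this window. Of these 7, 5 were lowered, against 23.9% of all 11491 peaks of that mean count. At chr16:30187001-30187501 (mean count 118) the authors' deposited table had -2.03 (SE 0.30, adjusted p = 3.09e-09), and at chr16:30045567-30046067 (mean count 115) -2.38 (SE 0.41, adjusted p = 4.23e-07). Other losses among them were smaller. The authors' deposited table had -0.63 (SE 0.17, adjusted p = 0.00124) at chr16:30066853-30067353 and -0.39 (SE 0.11, adjusted p = 0.00234) at chr16:30070282-30070782. A second deposited test, read as one against an absolute log2 fold change of 0.5, called neither. The strongest of all 112 by mean count (193), at chr16:30064012-30064512, moved least among the lowered ones, at -0.36 (SE 0.13, adjusted p = 0.0121) by the authors' deposited table, and the second test did not call it. Only 1053 bp from it, chr16:30065065-30065565 had -1.87 (SE 0.24, adjusted p = 1.23e-11) with a mean count of 49.7 in the authors' deposited table, so adjacent peaks of the locus changed to different extents.

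Gains at Hes1 were fewer and lay mostly toward the right end. The authors' deposited table had 2.69 (SE 0.61, adjusted p = 0.00011) at chr16:30149884-30150384 and 2.26 (SE 0.59, adjusted p = 0.00077) at chr16:30189109-30189609. Another, chr16:30056971-30057471, had 1.45 (SE 0.52, adjusted p = 0.0138) by the authors' deposited table, 1495 bp from the largest loss of the window, but was not called relative to the median of all peaks (adjusted p = 0.167). Of 21 pairs of neighboring called peaks, 9 had opposite directions. With the general shift subtracted, 2 of the 40 Hes1 peaks were higher and 24 lower, against 19.9% higher and 25.6% lower over all peaks.

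Rest, the repressor of neuronal genes, had few peaks and 1 call. That peak, at chr5:77674781-77675281, had -2.04 (SE 0.48, adjusted p = 0.000166) with a mean count of 12.3 in the authors' deposited table. The window's strongest peak, at chr5:77694764-77695264 (mean count 48.6), had -0.27 (SE 0.30, adjusted p = 0.482) by the authors' deposited table, with a 95% interval of -0.86 to 0.33, and became lower once the shift of 0.60 was subtracted (-0.87, adjusted p = 0.012). Relative to that median 4 of the 6 peaks were lower and 0 higher, against 25.6% lower and 19.9% higher over all peaks. A stretch of 78.0 kb that begins after the last peak held no merged peak, so a strong summit found there by every pool was not tested.

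Cd44, the hyaluronan receptor of adherent cells, carried the 2 largest gains of the 6 loci. At chr2:102698483-102698983 the log2 fold change was 5.17 (SE 1.01, adjusted p = 5.93e-06), 36-fold on the fitted scale, with a mean count of 18.1 in the authors' deposited table. A pair of peaks 1253 bp apart rose together near the right end. The stronger, at chr2:102777008-102777508 (mean count 40.1), had 4.38 (SE 0.81, adjusted p = 1.79e-06), and the other, at chr2:102775755-102776255, had 3.59 (SE 0.79, adjusted p = 5.44e-05) by the authors' deposited table. None of these 3 held a CGRP-pool summit, while the CMV pool had one at each. The window right of its centre held 5 raised and 0 lowered peaks of 9, and the part left of it 1 and 1 of 7. The one loss was at chr2:102604963-102605463, with -1.15 (SE 0.37, adjusted p = 0.00642) by the authors' deposited table. The peak with the highest mean count, 136, at chr2:102585313-102585813, had 0.08 (SE 0.15, adjusted p = 0.689) by the authors' deposited table. Its 95% interval was -0.22 to 0.37, and relative to the median of all peaks it was lower (-0.52, adjusted p = 0.00206). Here too the median of 0.60 does not hold for peaks with a mean count of 100 or more, whose median was -0.02. Of the 6 raised peaks, 1 had a mean count of at least 20, so most of the Cd44 gains lay at peaks of low average signal.

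Ccnd1, which encodes cyclin D1, had no peak called raised. Its log2 fold changes ran from -2.04 to 0.14 over the 12 peaks. The lowered peaks were chr7:152159239-152159739, with -2.04 (SE 0.68, adjusted p = 0.00816, mean count 9.69), and chr7:152123387-152123887, with -0.97 (SE 0.30, adjusted p = 0.00433, mean count 30.7), in the authors' deposited table. The strongest peak, chr7:152100592-152101092 (mean count 106), had -0.17 (SE 0.18, adjusted p = 0.426) by the authors' deposited table. With the shift subtracted, 6 of the 12 peaks were lower, this one among them (-0.78, adjusted p = 7.46e-05), and 0 higher. Over all peaks 25.6% were lower and 19.9% higher. The shift of 0.60 does not hold for peaks with a mean count of 100 or more, whose median was -0.02.

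The members were also split by average signal, at a limit of 100 that was chosen after the values were seen. Of the 11 members at mean counts of 100 or more, 6 were lowered and 0 raised, with log2 fold changes of -2.38 to 0.08 and SEs of 0.11 to 0.41 in the authors' deposited table. Among all 11491 peaks of that mean count, 25.4% were raised and 23.9% lowered. The limit sets the count of 0: just under it, the Hes1 peaks chr16:30151107-30151607 (mean count 90.9) and chr16:30184843-30185343 (mean count 90.6) were raised, with 0.86 (SE 0.24, adjusted p = 0.00169) and 1.19 (SE 0.26, adjusted p = 5.3e-05) by the authors' deposited table. The mean count is the same in both deposited tables and may include the libraries compared, so it is not independent of the change. Among the 101 weaker members, 22 were raised and 22 lowered. From a mean count of 20 upward, 15 members were raised and 22 lowered of 70, against 34.3% and 17.5% of all such peaks. With the shift of 0.60 subtracted, all 11 members at 100 or more were lower. Of the 11491 peaks of that mean count, 7041 were then lower and 952 higher.

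**Figure D3:**
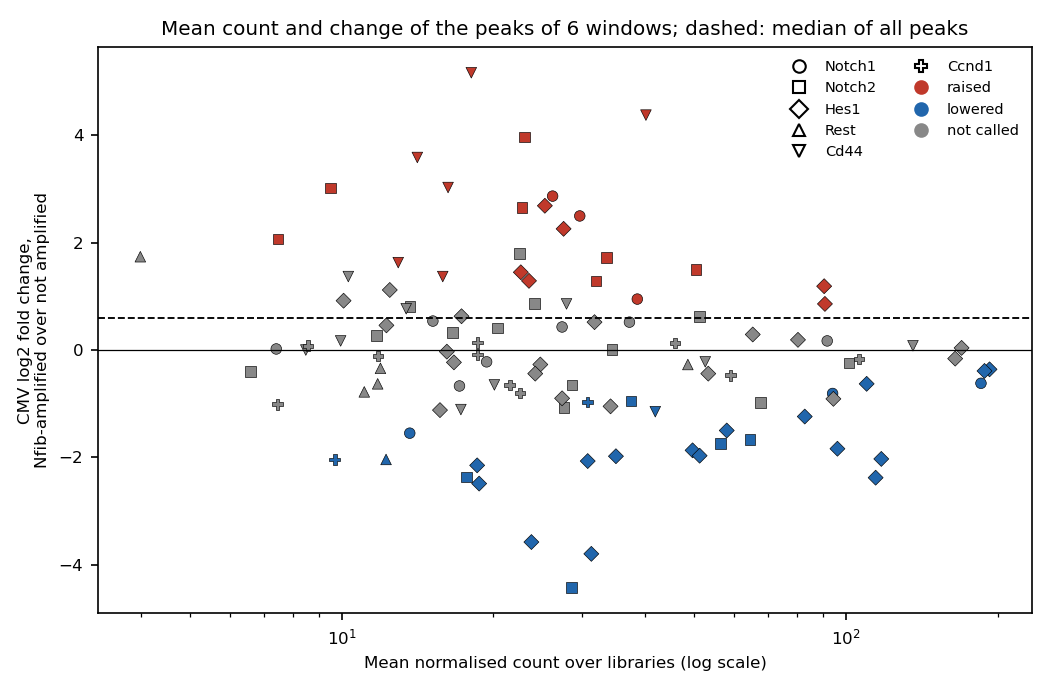
CMV log2 fold change of each peak against its mean normalised count over libraries (log scale), with symbols for the windows and colors for the call at an adjusted p under 0.05; the dashed line marks the median of all peaks, 0.60. The 22 raised peaks all have mean counts of 90.9 or less, and the 11 peaks at 100 or more lie between -2.38 and 0.08.

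In CGRP tumors 1 peak of the 6 loci was called between liver metastases and lung tumors, a loss at Hes1. Of 111 member peaks with an adjusted p in the authors' deposited table, 1 (0.901%) was lowered in liver metastases and 0 were raised. Over all 105121 peaks with an adjusted p, 0.779% were lowered and 0.0752% raised, so the members' share is near the background. At an unadjusted p under 0.05 there were 11 of 112 member peaks (9.82%), against 9.62% of all peaks. The lowered peak was the largest Hes1 loss of the CMV comparison, chr16:30055476-30055976, with -2.19 (SE 0.43, adjusted p = 0.000313), 4.56-fold, in the authors' deposited table. It was the only member called in both comparisons, and the share of all peaks called in both was not counted. Its changes of -3.80 and -2.19 differed by -1.61 (SE 0.68, adjusted p = 0.0659 in a two-sided z test). The second deposited test did not call this peak in the CGRP comparison (adjusted p = 0.101). A peak to its left, chr16:30047518-30048018, had -2.07 (SE 0.65, adjusted p = 0.00492) in the CMV and -2.10 (SE 0.61, adjusted p = 0.0604) in the CGRP comparison of the authors' deposited table.

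The CGRP intervals give the range left by the fitted error and do not cover batch or shared animals. At the median SE of the members, 0.43, the 95% interval reaches 0.85 on either side. It is wider where the SE is larger, as at chr2:102698483-102698983 (SE 1.01), and narrower at the peaks of highest mean count. The authors' deposited table gave 0.34 (95% interval 0.04 to 0.64) for that peak at Notch1, -0.03 (-0.29 to 0.24) at Notch2, 0.05 (-0.16 to 0.25) at Hes1, -0.27 (-0.79 to 0.25) at Rest, 0.25 (0.00 to 0.49) at Cd44 and 0.17 (-0.11 to 0.44) at Ccnd1. None had an adjusted p under 0.397. Median log2 fold changes were 0.47 at Notch1, 0.24 at Ccnd1, 0.09 at Cd44, -0.06 at Notch2, -0.07 at Rest and -0.13 at Hes1. At Notch1, 10 of 13 peaks were above 0, from -0.29 to 0.82, and none was called.

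The difference between the comparisons was tested peak by peak, since a call in the CMV comparison alone does not show that the 2 changes differ. The contrasts are unlike: amplification together with tissue in CMV, and metastasis against lung tumor, partly with batch, in CGRP libraries. A difference at a peak is therefore one between unlike contrasts and does not show that CMV and CGRP tumors differ. In a two-sided z test with Benjamini-Hochberg adjustment over all peaks, 29 of 112 members differed (25.9%), against 23.4% of all 113873 peaks. The CMV change was the higher in 15 and the lower in 14. Over all peaks these shares were 17.8% and 5.62%. With both comparisons centred on their medians, the split was 7 and 36, for which the shares over all peaks were not counted. Of the 29, 27 were called in the CMV comparison, and 23 of the 50 CMV calls did not differ from the CGRP change at that threshold. Differences by window numbered 12 at Hes1, 7 at Notch2, 4 each at Notch1 and Cd44, and 1 each at Rest and Ccnd1. The largest were at Cd44, where 3 raised peaks exceeded the CGRP change by 4.69 (SE 1.43) at chr2:102698483-102698983, 4.20 (SE 1.13) at chr2:102777008-102777508 and 3.74 (SE 1.18) at chr2:102652165-102652665, with adjusted p of 0.00907, 0.00285 and 0.0122 in the z test. The smallest adjusted p was at Hes1, chr16:30065065-30065565, with a difference of -2.03 (SE 0.29, adjusted p = 9.17e-09 in the z test). At Notch1 the leading gain differed by 3.16 (SE 0.84, adjusted p = 0.00252 in the z test). The pair of strong peaks lowered there in CMV tumors each differed by -0.96, with SEs of 0.22 and 0.24 and adjusted p of 0.000312 and 0.00135 in the z test.

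**Figure D4:**
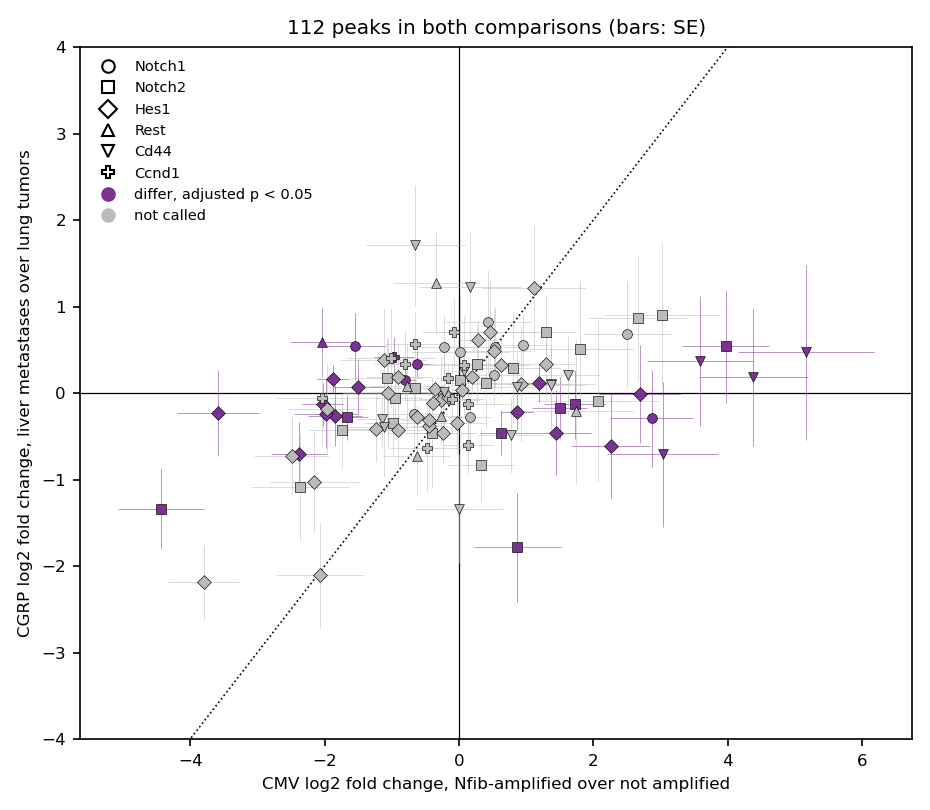
CGRP log2 fold change (liver metastases over lung tumors) against CMV log2 fold change (Nfib-amplified over not amplified) for the 112 peaks, with SEs as bars and symbols for the windows; purple marks the 29 peaks whose changes differ at an adjusted p under 0.05, and the dotted line is equality. CMV values spread from -4.43 to 5.17, while CGRP values stay between -2.19 and 1.71.

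As a description across peaks, which are not independent and share libraries and depth within each comparison, Pearson's r between the CMV and CGRP changes was 0.36 over the 112 members and 0.15 over all peaks. It was 0.61 over the 25 Notch2 peaks, 0.51 over the 40 at Hes1, 0.04 over the 16 at Cd44, -0.05 over the 13 at Notch1 and -0.16 over the 12 at Ccnd1. The 16 Hes1 peaks lowered in CMV tumors included 13 with a CGRP value below 0, against 25 of all 40 peaks of the window. All 5 lowered Notch2 peaks had one, against 14 of all 25. At Notch1 the 3 lowered peaks had CGRP values of 0.15 to 0.54, all above 0, as were 10 of all 13. These signs were counted without a test.

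Summits called on pooled libraries gave a second view of the same sites. The CMV pool joined 19 libraries, the CGRP pool 14 and the mixed pool 15 of both vectors, and the first 2 pools differ in vector and in preparation batch at once, which cannot be told apart. Within 250 bp of their centres, 85 of 112 members (75.9%) had a summit of all 3 pools, against 64.8% of all merged peaks. All 13 Notch1 peaks did, and 7 of 16 at Cd44. A CMV-pool but no CGRP-pool summit was found at 12 members (10.7%), against 22.6% of all merged peaks. Of these 12, 9 (75%) were raised in Nfib-amplified libraries and 0 lowered, and over all merged peaks with that pattern 65% were raised and 0.345% lowered. A CGRP-pool but no CMV-pool summit was found at 14 members (12.5%), against 9.1% of all merged peaks. Of these 14, 5 (35.7%) were lowered and 0 raised, against 31.4% and 4.19% of all merged peaks with that pattern. The direction of the calls by pool is thus close to that of the whole list. At Cd44, 5 peaks had a CMV summit only of these 2 pools, 4 of them raised. The CMV pool holds 2 amplified and 2 not amplified libraries of the CMV comparison beside the 15 of low enrichment, so the pools do not contrast amplification and these counts are not separate evidence. Scores are those of the authors' peak caller and rank sites within a list.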

How the data were processed

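ATAC-seq libraries from 48 mouse tumor samples were grouped by the labels. The submitters' processing notes name Bowtie2, MACS2, DESeq2 and mm9, with no version or role. Of read trimming, duplicate removal and any Tn5 shift the sources used here say nothing. The summit score in the deposited lists was read as −log10 of a q-value (smallest 1.30). Per the file headers, the deposited tables hold the mean normalised count (a signal averaged by the authors over libraries), log2 fold changes with SE, a Wald score, p-values and adjusted p-values; 0 columns of values per library were present, so no count model was fitted. The direction of each comparison rests on the table names and group codes. The description of 1 not amplified CMV library does not list its table. A second deposited test was read as one against an absolute log2 fold change of 0.5.

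Members were found by peak centre and windows, and the members and lists were chosen with earlier results of these data known. Calls are the authors' adjusted p under 0.05. Among CGRP results 8922 peaks lack an adjusted p, 1 of them a member. Named peaks were, per window, the one of highest mean count, up to 3 raised and 3 lowered by size in the CMV comparison, and those called in the CGRP comparison; other peaks named in the text were chosen after their values were seen. Differences between comparisons used a two-sided z test, tested on simulated data, with Benjamini-Hochberg adjustment over 113873 peaks, taking the 2 estimates as independent; centred values used the same Wald test. Intervals are the value ± 1.96 SE and cover the fitted error. The planned lists of other Notch genes and cell type markers needed an mm9 annotation and were not analysed here. Alternatives covered thresholds, the second test, centring, a mean count minimum of 20, window widths and summit distance and score. Software was Python 3.11.15 with scipy 1.17.1, pandas 2.3.3, matplotlib 3.10.9 and numpy 2.4.6.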

Additional observations from a re-analysis of the deposited data

Results flagged for a closer look

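In the Rest window, every pool placed a strong summit away from all merged peaks, and so no comparison covers it. No mm9 annotation was used, so this summit was assigned to no gene. It lay near chr5:77739205 (mm9), 34.0 kb from the nearest merged peak, inside a stretch without merged peaks from 77705476 to 77783428. Its score was 305.7 in the CMV pool, 743.8 in the CGRP pool and 434.5 in the mixed pool, within the top 1.92%, 3.94% and 3.05% of those lists by score. How the merged list was filtered was not stated in the labels, and whether this site changed was not tested. Summits have no control samples beside them, and scores do not compare pools.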

How the results depend on the processing

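Depth per library is unknown, and the call of a weak peak rests on SEs of up to 1.01. At the deposited settings 22 CMV peaks were raised and 28 lowered. The second deposited test called 13 (11.6%) and 14 (12.5%), against 19% and 4.64% of all peaks. Centring on the median of all peaks gave 12 and 50, against 19.9% and 25.6% of all peaks. Thresholds of 0.01 and 0.1, adjustment over every peak with a p, the mean count minimum and windows widened by 50 kb or narrowed by 20 kb kept both totals within 1.5 times. The 1 lowered CGRP peak became 2 at a threshold of 0.1 and 0 in the second test (adjusted p = 0.101). The differences (15 higher, 14 lower in CMV) became 7 and 36 with centring, and 6 were higher at a threshold of 0.01. Pool counts stayed within 1.5 times for all summit settings. Of the named peaks, the Cd44 peak of highest mean count had -0.52 (adjusted p = 0.00206) with centring, by subtraction of 0.60, and 0.08 without. Counted once per named peak and alternative, 16 values lost their call, 3 gained one and 194 kept direction and call. Part of the 194 could not change, because the mean count minimum leaves the value and adjusted p of a peak as deposited. Adjustment over every peak with a p also left those of the CMV comparison unchanged. With a mean count of at least 20, 1 raised Cd44 peak was left of 6. The second test left 0 of the 3 lowered Notch1 and 0 of the 2 lowered Ccnd1 peaks called. No paired analysis was possible because the tables hold no values per library; leaving out single libraries was not possible for the same reason.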

Other observations

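Outside the merged peaks, the summit lists held further sites at these loci, given here as counts. In the 6 windows, 66 of 170 CMV-pool summits (38.8%), 61 of 162 CGRP-pool summits (37.7%) and 74 of 182 mixed-pool summits (40.7%) lay more than 250 bp from any merged peak, against 57.5%, 48.9% and 48.6% of the whole lists. At Cd44 the CMV pool had 33 summits, 21 of them without a merged peak, and the CGRP pool 18, 7 of them without. At Ccnd1 the order was the other way, with 17 CMV-pool summits (5 without) and 26 CGRP-pool summits (13 without). At Hes1 the pools had 51, 45 and 53 summits. Pool size, vector and batch differ together, and these counts were not tested.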
